A study of Mus musculus with 550 samples.

Results

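The genes described here are 10 well-known transcriptional targets of p53 in the mouse: Cdkn1a, Mdm2, Bax, Ccng1, Bbc3, Phlda3, Eda2r, Trp53inp1, Zmat3 and Pmaip1. They were chosen by name, and each was read from the microarray probe set that the platform annotation assigns to that gene alone and that had the highest mean level in the organ. By this rule 9 of the 10 genes were measured, among 17097 genes in all; Bax, which forms pores in the outer mitochondrial membrane, was not analysed here. The same probe set was used for a gene in all 7 organs. C57BL/6 mice received a single dose and were killed 6 h or 12 h later. Control animals were given vehicle, 0.8% hydroxypropyl methylcellulose. DMF (dimethyl fumarate) was given at 100 mg/kg or at 179.2 mg/kg. MEF (monoethyl fumarate) was given at 79.2 mg/kg as its calcium, magnesium and zinc salts mixed, and the combination joined this MEF dose to DMF at 100 mg/kg. Mice labelled NAIVE were killed at 12 h, and the labels name no dose for them. RNA of whole organs was hybridised on 550 arrays, with 1 array per animal and organ: 77 of kidney, 76 of jejunum, 88 of mesenteric lymph node (MLN), 73 of inguinal lymph node (ILN), 72 of spleen, 86 of brain and 78 of whole blood (WB). These fall into 77 groups of 3 to 8 arrays.

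p53 is a transcription factor that is held at a low level by Mdm2, a ubiquitin ligase whose own gene p53 activates, so that the pair form a negative feedback loop. When DNA is damaged, or when ribosomes, redox balance or nutrient supply are disturbed, p53 accumulates and switches on genes that stop the cell cycle, repair DNA, change metabolism or start apoptosis. Many of these genes also respond to other factors. Cdkn1a, for example, encodes the cyclin-dependent kinase inhibitor p21 and is also induced by glucocorticoids and by several stress pathways. Pmaip1 (Noxa) and Bbc3 (Puma) encode BH3-only proteins that neutralise the anti-apoptotic members of the Bcl-2 family. Ccng1 encodes cyclin G1, which feeds back on p53 through Mdm2. Trp53inp1 encodes a nuclear protein that promotes p53 activity, Zmat3 a zinc finger protein that binds RNA, Phlda3 a small pleckstrin-homology protein that restrains Akt, and Eda2r a receptor of the tumour necrosis factor family.

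The promoters of Cdkn1a and Mdm2, the members with the largest and with the most frequent kidney rises, are shown with the motifs found in them. Windows from 250 bases before to 50 bases after an annotated start were taken from RefSeq on GRCm38.p6. Of the 10 members, 7 had at least 1 window, 10 windows in all; Trp53inp1, Zmat3 and Pmaip1 had none. Each window was searched for the p53 decamer consensus, which reads the same on both strands, and for the antioxidant response element core TGACNNNGC on both strands. NRF2, the factor that DMF is best known to activate, binds such elements. Capitals mark the matches, and each sequence runs 5′ to 3′ on the strand of the gene.
Cdkn1a, upstream start, chr17:29090729-29091028, plus strand: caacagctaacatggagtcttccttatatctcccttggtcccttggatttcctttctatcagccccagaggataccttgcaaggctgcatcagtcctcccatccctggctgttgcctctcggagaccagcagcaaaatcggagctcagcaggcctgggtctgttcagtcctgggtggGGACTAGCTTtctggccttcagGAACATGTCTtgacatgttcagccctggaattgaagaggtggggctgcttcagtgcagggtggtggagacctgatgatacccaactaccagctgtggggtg
Cdkn1a, downstream start, chr17:29093519-29093818, plus strand: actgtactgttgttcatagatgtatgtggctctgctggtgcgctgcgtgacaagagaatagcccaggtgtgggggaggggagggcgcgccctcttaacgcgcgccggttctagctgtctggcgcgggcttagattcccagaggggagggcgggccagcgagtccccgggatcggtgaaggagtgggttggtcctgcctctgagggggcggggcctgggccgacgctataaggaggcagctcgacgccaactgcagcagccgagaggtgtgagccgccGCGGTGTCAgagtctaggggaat
Mdm2, chr10:117710709-117711008, minus strand: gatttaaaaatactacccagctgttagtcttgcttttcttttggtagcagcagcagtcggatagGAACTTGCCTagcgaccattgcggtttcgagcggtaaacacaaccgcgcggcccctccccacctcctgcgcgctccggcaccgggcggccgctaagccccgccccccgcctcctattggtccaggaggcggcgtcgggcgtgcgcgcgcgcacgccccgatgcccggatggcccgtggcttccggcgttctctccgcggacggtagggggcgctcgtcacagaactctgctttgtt
The upstream Cdkn1a window held a pair of p53 decamers, from -73 to -42 relative to the start, with 12 bases between them. The bases tgacatgttc directly after the second decamer differ from the consensus only at their first base. They were therefore not counted or marked as a match. A pair 0 to 13 bases apart was found in 0.0731% of the 32851 windows of the genome (24 windows). The Mdm2 window held a single decamer, from -186 to -177, as did the windows of Bax and Ccng1. A single decamer or more was found in 4 of the 10 member windows and in 8.36% of all windows. The downstream Cdkn1a window held the antioxidant response element core from 28 to 36, on the opposite strand, a motif found in 12.4% of all windows. These are matches of letters only, and the arrays give no measure of binding.

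The values are log2 intensities, deposited already normalised, and each organ and time forms its own set. Changes are given against the vehicle group of the same organ and time, with the standard error and the limma p-value adjusted over the 17097 genes. A gene is said to have risen or fallen when that adjusted p was below 0.05. All dosed groups and NAIVE of a set share its vehicle arrays, so their changes are not independent of each other. The defining markers of the labelled tissue were present on every array: their mean level on the lowest array was 9.38 for the 3 kidney markers measured, 11.5 for 4 of jejunum, 10.6 and 11.3 for 4 lymphocyte markers in MLN and ILN, 10.4 for 3 of spleen, 11.1 for 4 of brain and 12.5 for 4 of blood, where the lowest values of a set lie near 2.2. Nqo1, an NRF2 target used here as a check of exposure, rose in kidney in all 8 dosed groups (by 1.02 to 1.75) and was not called in NAIVE (-0.03). In whole organs, a change in the RNA of a cell type and a change in the number of its cells cannot be told apart. The place of an animal's number in runs of 12 differed between treatments: vehicle and MEF animals held places 1 to 8, DMF 179.2 and NAIVE 5 to 12, and DMF 100 and the combination 1 to 4 and 9 to 12. What the number stands for is not stated in the labels.

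Over the 56 comparisons of a dosed group with vehicle there were 504 member values, of which 29 (5.75%) passed the test, 18 higher and 11 lower; 101 had an unadjusted p below 0.05. Of all gene values in these comparisons 3.59% passed. The kidney held 19 of the 29 calls and 16 of the 18 that were higher, and it also held 42.4% of the calls over all genes. In kidney 26.4% of the member values were called beside 10.7% of all gene values. Spleen held 4 member calls, all lower (5.56% of its values, beside 4.42% of all), MLN and ILN 3 each (4.17%, beside 2.42% and 2.36%), and jejunum, brain and WB none, beside 3.91%, 1.29% and 0.0819%. No member rose in every organ. Mdm2 was called in 4 organs: it rose in 5 comparisons, all in kidney, and fell in 4, in MLN, ILN and spleen. Cdkn1a rose in 3, all in kidney, and Bbc3 in 2, also in kidney. Zmat3 rose in 3 and fell in 1. Pmaip1 rose in 2 and fell in 4. Ccng1 rose in 2 and fell in 1, Phlda3 rose in 1, Trp53inp1 fell in 1, and Eda2r passed the test in none of 56. NAIVE against vehicle gave 14 calls among 63 values, 2 higher and 12 lower, with 24 at an unadjusted p below 0.05. That is 22.2% of the member values beside 15.9% of all gene values, so nothing about the members is read from this count.

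**Figure D1:**
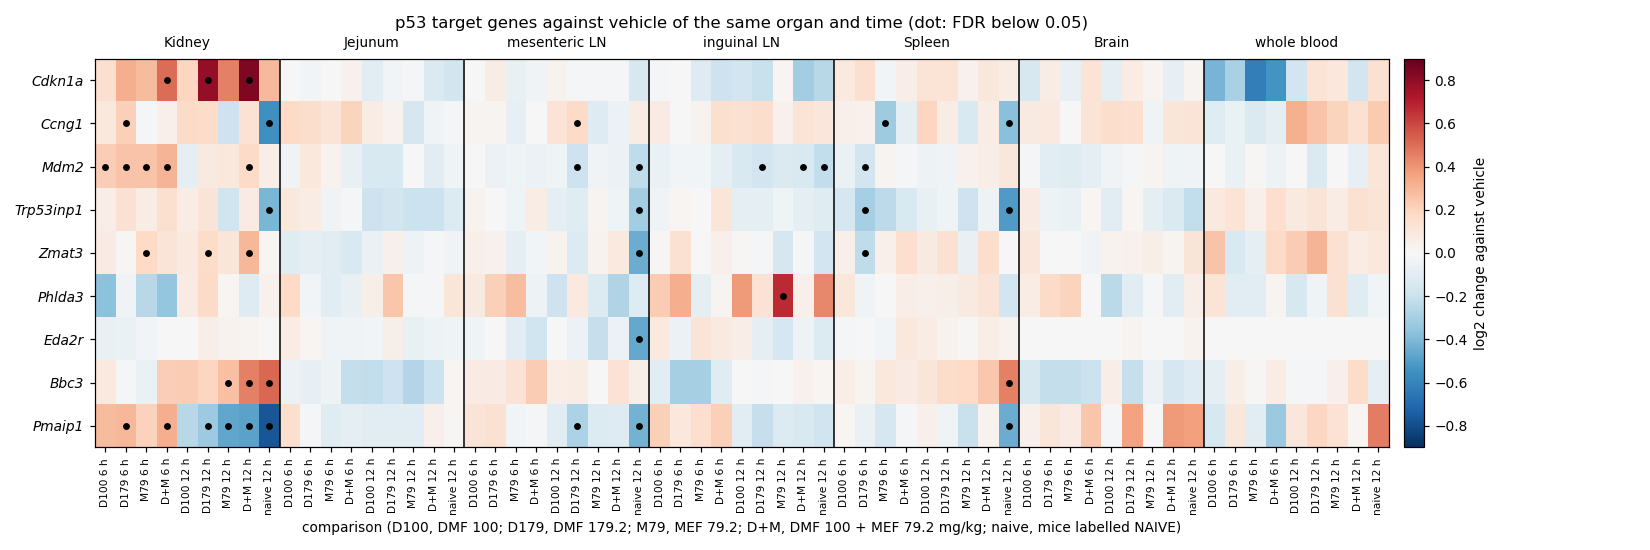
Log2 change of the 9 measured p53 targets (rows) against vehicle of the same organ and time, for each dosed group and NAIVE (columns); colour gives the change and black dots mark an adjusted p below 0.05. The higher calls lie mainly in the kidney columns, where Cdkn1a reached 0.84, while jejunum, brain and WB hold no called member.

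In vehicle animals the members stood at very different levels from organ to organ. These levels were set across sets that were normalised apart, so they are descriptions with no test. Cdkn1a at 12 h was highest in jejunum, at 11.35 ± 0.19 (SD, n = 8), an organ whose lining is renewed continually. It stood at 8.04 ± 0.16 (n = 4) in ILN, 7.67 ± 0.20 (n = 8) in MLN and 7.61 ± 0.10 (n = 8) in brain. It was lower in kidney, at 6.82 ± 0.17 (n = 8), and in spleen, at 6.61 ± 0.18 (n = 7), and lowest in WB, at 4.03 ± 0.26 (n = 7). MLN and brain, and likewise kidney and spleen, differed by no more than about the spread of their arrays. Mdm2 varied far less, between 9.78 ± 0.11 in WB (n = 7) and 10.75 ± 0.05 in ILN (n = 4). Trp53inp1 was highest in spleen (11.62 ± 0.18, n = 7) and lowest in brain (8.60 ± 0.15, n = 8), and Zmat3 showed its highest level in brain (11.18 ± 0.05) and its lowest in WB (6.27 ± 0.46). Pmaip1 ranged from 5.08 ± 0.39 in brain to 10.24 ± 0.24 in jejunum. Ccng1 lay between 9.43 ± 0.16 in WB and 11.16 ± 0.09 in kidney. Bbc3 and Phlda3 were dim, with organ means of 4.20 to 5.08 and of 3.42 to 6.06. Eda2r lay at or close to the lowest value of the set in brain, WB, kidney, jejunum and spleen (2.18 to 2.42), so no lower level could be read there, and stood above it in ILN (3.57 ± 0.21) and MLN (4.38 ± 0.20).

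At 6 h in kidney, Mdm2 rose in all 4 dosed groups by 1.17 to 1.24-fold, Pmaip1 rose in 2 groups, and Cdkn1a, Ccng1 and Zmat3 in 1 group each; no member fell. The members called numbered 1 of 9 with DMF 100, 3 with DMF 179.2, 2 with MEF and 3 with the combination, where 4.07%, 25%, 5.9% and 13.2% of all genes were called. The members' median change was 0.09, 0.13, 0.07 and 0.14, beside medians of all genes at or near 0. With DMF 179.2 the members' count of 3 of 9 was near that background.

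Mdm2 in the 7 vehicle kidneys at 6 h lay between 10.28 and 10.55, with a median of 10.46. The 8 DMF 100 arrays ran from 10.54 through a median of 10.61 to 10.88 (change 0.22 ± 0.04, adjusted p = 0.000459). The 8 DMF 179.2 arrays ran from 10.50 through 10.69 to 10.83 (0.26 ± 0.04, adjusted p = 4.27e-06). In both DMF groups the lowest array lay inside the vehicle range. The 8 MEF arrays ran from 10.59 through 10.69 to 10.80 (0.25 ± 0.04, adjusted p = 2.88e-05), and the 7 of the combination from 10.64 through 10.77 to 10.82 (0.31 ± 0.05, adjusted p = 4.65e-07). The MEF and combination groups did not overlap the vehicle group. A second Mdm2 probe set, of lower level, changed by -0.01, -0.13, 0.36 and 0.24 in the same 4 comparisons and was called in none. With the mean of both probe sets the DMF 100 and DMF 179.2 calls were lost (0.11 and 0.07).

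Pmaip1, which stood between 8.25 and 8.62 (median 8.39) in the vehicle kidneys at 6 h, rose with DMF 179.2 and with the combination. The DMF 179.2 arrays ran from 8.48 through 8.76 to 8.90 (0.30 ± 0.10, adjusted p = 0.0248, n = 8). Those of the combination ran from 8.35 through 8.71 to 9.17 (0.33 ± 0.11, adjusted p = 0.0259, n = 7). Both groups overlapped the vehicle range. DMF 100 gave a change of nearly the same size that was not called (0.29 ± 0.10, adjusted p = 0.109), and MEF one of 0.21 ± 0.10 (adjusted p = 0.293). With the animals' place as a covariate neither call was kept (0.23 and 0.28), and with only the 2 groups compared in the fit the combination call was lost (0.33, adjusted p = 0.127).

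Cdkn1a at 6 h was called only with the combination, and that call rested on 1 animal. The vehicle arrays ran from 6.42 through 6.63 to 6.87 and the 7 combination arrays from 6.77 through 6.91 to 8.39 (0.51 ± 0.18, adjusted p = 0.0492). Without array 84, the highest, the change was 0.30 (adjusted p = 0.268), and with only the 2 groups compared the call was lost as well (0.51, adjusted p = 0.197). The other groups changed by 0.14 ± 0.17 (DMF 100), 0.33 ± 0.17 (DMF 179.2) and 0.28 ± 0.17 (MEF), none of them called, and all overlapped vehicle. Ccng1 rose with DMF 179.2, from a vehicle range of 11.80 to 11.91 (median 11.88) to 11.98 through 12.05 to 12.24 (0.21 ± 0.07, adjusted p = 0.0198), without overlap; the mean of its 3 probe sets (0.05) and place as a covariate (0.12) each ended that call. Zmat3 rose with MEF, from 9.23 through 9.39 to 9.50 in vehicle to 9.48 through 9.56 to 9.68 (0.18 ± 0.05, adjusted p = 0.0216), with a slight overlap. Phlda3 changed by -0.37 to -0.03, Trp53inp1 by 0.06 to 0.14, Bbc3 by -0.06 to 0.22 and Eda2r by -0.06 to 0.00, none of them called. In the DMF 179.2 kidneys 2 of 4 blood markers were higher (median 0.63), with array means of 4.83 to 6.05 against 4.56 to 4.89 in vehicle; their part in the member changes was not tested.

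At 12 h in kidney, Cdkn1a rose by 1.73 to 1.79-fold with DMF 179.2 and with the combination, Zmat3 rose in the same 2 groups, Bbc3 rose with MEF and the combination, Mdm2 rose with the combination alone among the groups tested, and Pmaip1 fell in 3 groups. The members called numbered 0 of 9 with DMF 100, 3 with DMF 179.2, 2 with MEF and 5 with the combination, where 1.38%, 7.25%, 17.5% and 11% of all genes were called. The members' medians were 0.07, 0.17, 0.03 and 0.13.

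Cdkn1a in the 8 vehicle kidneys at 12 h lay between 6.46 and 7.0, with a median of 6.83. With DMF 179.2 the 8 arrays ran from 6.93 through 7.67 to 8.21 (0.79 ± 0.17, adjusted p = 0.000789). The 4 combination arrays stood at 8.09, 7.18, 7.73 and 7.62 (0.84 ± 0.21, adjusted p = 0.00355). All 4 combination arrays exceeded every vehicle array, whereas the lowest DMF 179.2 array lay inside the vehicle range. MEF arrays ran from 6.90 through 7.20 to 8.0 (0.45 ± 0.17, adjusted p = 0.0631) and DMF 100 arrays from 6.69 through 7.04 to 7.33 (0.20 ± 0.18, adjusted p = 0.920), so that neither was called. The second Cdkn1a probe set rose by 0.39 with DMF 179.2, 0.53 with the combination and 0.35 with MEF (adjusted p = 0.00216, 0.000337 and 0.00373). It also rose in NAIVE, by 0.32 (adjusted p = 0.00487), where the probe set used here gave 0.29 ± 0.18 (adjusted p = 0.197). In the span of places that DMF 179.2 and vehicle share, 4 arrays against 4, the Cdkn1a change was 0.68 (adjusted p = 0.420). The 4 combination arrays of kidney at 12 h shared no place with the vehicle arrays, so no such value exists for the combination. For every member, treatment and place therefore cannot be told apart by comparing those combination and vehicle arrays alone.

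**Figure D2:**
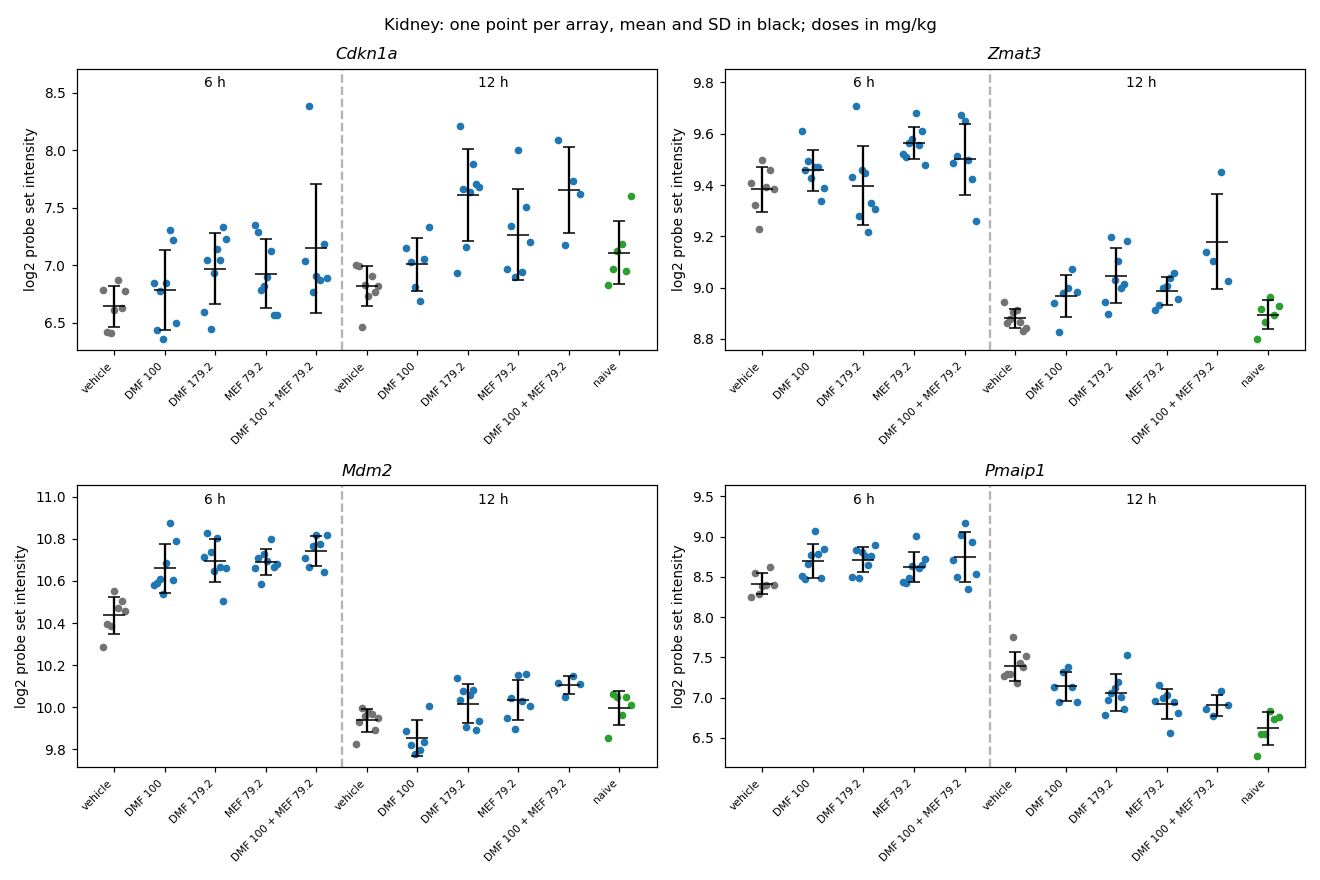
Log2 intensity of Cdkn1a, Zmat3, Mdm2 and Pmaip1 on every kidney array, by group, at 6 h (left of the dashed line) and 12 h; each point is 1 animal, and the black bars are the group mean and SD. At 12 h all 4 combination arrays for Cdkn1a lie above the highest vehicle array (7.0), and at 6 h array 84 of the combination stands alone at 8.39.

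The BH3-only genes moved in opposite directions at 12 h. Pmaip1 ran from 7.18 through 7.34 to 7.75 in vehicle kidneys. It was 6.78 through 7.03 to 7.53 with DMF 179.2 (-0.33 ± 0.10, adjusted p = 0.0281) and 6.56 through 6.96 to 7.15 with MEF (-0.47 ± 0.10, adjusted p = 0.000563). The 4 combination arrays stood at 6.86, 6.78, 7.08 and 6.90 (-0.48 ± 0.12, adjusted p = 0.00432). The MEF and combination arrays all lay below the lowest vehicle array, and the DMF 179.2 arrays overlapped; DMF 100 was not called (-0.25 ± 0.11, adjusted p = 0.334). With only the 2 groups compared the DMF 179.2 call was lost (-0.33, adjusted p = 0.0892). Bbc3 ran from 3.69 through 4.21 to 4.55 in vehicle, 4.41 through 4.44 to 4.55 with MEF (0.27 ± 0.10, adjusted p = 0.0436), and was 4.53, 4.50, 4.70 and 4.86 in the combination (0.45 ± 0.11, adjusted p = 0.00481). Both groups overlapped vehicle, whose Bbc3 spread was wide, and a further quantile normalization ended the MEF call (0.23, adjusted p = 0.105). With only the 2 groups compared both Bbc3 calls were lost (adjusted p = 0.111 with MEF and 0.118 with the combination). Bbc3 is a dim gene in kidney, where the vehicle mean was 4.20 ± 0.28 (SD, n = 8) and the lowest value of the set 2.23.

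Zmat3 at 12 h lay in a narrow band in vehicle kidneys, from 8.83 through 8.87 to 8.94. It ran from 8.90 through 9.02 to 9.20 with DMF 179.2 (0.17 ± 0.05, adjusted p = 0.0250), and the 4 combination arrays stood at 9.14, 9.11, 9.45 and 9.03 (0.30 ± 0.06, adjusted p = 0.000332). The combination did not overlap vehicle. Leaving out DMF 179.2 array 24, doubted from earlier results of these data, or adding place as a covariate, ended the DMF 179.2 call (0.15 and 0.16). Mdm2 ran from 9.82 through 9.95 to 10.00 in vehicle and stood at 10.12, 10.05, 10.15 and 10.11 in the combination (0.17 ± 0.05, adjusted p = 0.0231), without overlap. That call was lost on leaving out combination array 33, 35 or 36 (0.16 to 0.17) and with the mean of both probe sets (0.03). Mdm2 was not called with DMF 100 (-0.08), DMF 179.2 (0.08) or MEF (0.10). Ccng1 fell just short with MEF (-0.19 ± 0.07, adjusted p = 0.0533), while one of its other probe sets rose with DMF 179.2 (0.32, adjusted p = 0.00332) and the combination (0.42, adjusted p = 0.00141). Phlda3 (-0.11 to 0.17), Trp53inp1 (-0.18 to 0.12) and Eda2r (0.00 to 0.05) were called in no dosed group at 12 h.

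Doses and times were then compared directly in each organ: DMF 179.2 and the combination each against DMF 100 at both times, and the change at 12 h against the change at 6 h for each of the 4 treatments, 8 contrasts per organ. In kidney the combination exceeded DMF 100 at 12 h for Mdm2 (0.25 ± 0.06, adjusted p = 0.00223) and Zmat3 (0.21 ± 0.06, adjusted p = 0.0405), 2 of 9 members where 4.26% of all genes were called. Leaving out combination array 33 or 35 ended the Zmat3 call (0.23 and 0.12), and the mean of both Mdm2 probe sets ended the Mdm2 call (0.12, adjusted p = 0.672). For Cdkn1a at 12 h neither contrast was called, although the estimates were large: 0.60 ± 0.18 for DMF 179.2 over DMF 100 (adjusted p = 0.138) and 0.64 ± 0.22 for the combination over DMF 100 (adjusted p = 0.0763). Between the times, the Pmaip1 change turned from positive to negative. The difference was -0.62 ± 0.14 with DMF 179.2 (adjusted p = 0.00266), -0.68 ± 0.15 with MEF (adjusted p = 0.00174) and -0.82 ± 0.16 with the combination (adjusted p = 0.000814), where 7.14%, 7.38% and 2.8% of all genes differed between the times. With DMF 100 it was Mdm2 whose change was smaller at 12 h (-0.31 ± 0.06, adjusted p = 0.00857), in a contrast where 0.404% of genes were called, a call that the mean of both Mdm2 probe sets ended (-0.19). The larger Cdkn1a change at 12 h was not shown to differ from that at 6 h: the differences were 0.05, 0.46, 0.17 and 0.33 for DMF 100, DMF 179.2, MEF and the combination, and none was called.

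NAIVE kidneys differed from vehicle kidneys in 4 of the 9 members, in a comparison where 46% of all genes were called, so the count is near the background. Pmaip1 ran from 6.28 through 6.64 to 6.83 in the 6 NAIVE arrays (-0.77 ± 0.11, adjusted p = 9.6e-09). Ccng1 ran from 10.38 through 10.60 to 10.95 against 11.04 through 11.16 to 11.29 in vehicle (-0.56 ± 0.07, adjusted p = 2.86e-09). Neither gene's groups overlapped. Trp53inp1 ran from 9.12 through 9.45 to 9.67 against 9.65 through 9.84 to 10.09 (-0.41 ± 0.09, adjusted p = 8.3e-05), and Bbc3 from 4.44 through 4.67 to 5.12 (0.52 ± 0.10, adjusted p = 1.69e-05). Both of these groups overlapped vehicle at the edges. For Pmaip1 and Bbc3 the NAIVE arrays thus stood on the same side of vehicle as the called dosed groups at 12 h, and these comparisons share the vehicle arrays. Cdkn1a (0.29), Mdm2 (0.06), Zmat3 (0.01), Phlda3 (0.04) and Eda2r (0.00) were not called. Within the span of places that NAIVE and vehicle share, 3 arrays against 4, Ccng1 (-0.73), Pmaip1 (-0.92) and Trp53inp1 (-0.37) remained called and Bbc3 did not (0.79, adjusted p = 0.0522).

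In MLN no member was called at 6 h, where the shares of all genes called were 0.0234% with DMF 100, 0.392% with DMF 179.2, 0.00585% with MEF and 0.181% with the combination. At 12 h DMF 179.2 gave 3 calls of 9, beside 13.8% of all genes: Mdm2 and Pmaip1 fell and Ccng1 rose. DMF 100, MEF and the combination gave none, beside 0.0819%, 0.602% and 4.24%. Mdm2 ran from 10.30 through 10.38 to 10.46 in 8 vehicle nodes and from 10.10 through 10.20 to 10.27 in 8 of DMF 179.2 (-0.18 ± 0.04, adjusted p = 0.000184), without overlap. Pmaip1 ran from 8.98 through 9.35 to 9.53 in vehicle and from 8.80 through 9.05 to 9.37 with DMF 179.2 (-0.29 ± 0.09, adjusted p = 0.0157), with overlap; with only the 2 groups compared that call was lost (adjusted p = 0.0712). Ccng1 ran from 10.58 through 10.82 to 10.90 and from 10.76 through 10.99 to 11.18 (0.17 ± 0.06, adjusted p = 0.0425), also with overlap. Place as a covariate (0.07), a further quantile normalization (0.15), the mean of its probe sets (0.03) and only the 2 groups compared (adjusted p = 0.116) each ended the Ccng1 call. Mdm2 was lower with DMF 179.2 than with DMF 100 at 12 h (-0.14 ± 0.04, adjusted p = 0.0136), where 4.53% of genes differed, a call that the mean of both probe sets ended (-0.21). The Pmaip1 change with DMF 179.2 was lower at 12 h than at 6 h (-0.42 ± 0.12, adjusted p = 0.0423), where 2.61% did.

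The NAIVE nodes gave the most member calls of any comparison in MLN, 5 of 9 and all lower, beside 24.4% of all genes. The members' median was -0.23. Zmat3 ran from 7.64 through 7.88 to 8.22 against 8.10 through 8.38 to 8.54 in vehicle (-0.45 ± 0.06, adjusted p = 3.39e-08), Pmaip1 from 8.63 through 8.83 to 9.28 (-0.43 ± 0.09, adjusted p = 9.49e-05), and Eda2r from 3.24 through 3.91 to 4.6 against 4.17 through 4.34 to 4.70 (-0.46 ± 0.13, adjusted p = 0.0059). All of these overlapped vehicle, and with only the 2 groups compared the Eda2r call was lost (adjusted p = 0.0923). Trp53inp1 (10.82 through 11.11 to 11.23 against 11.23 through 11.35 to 11.66, -0.31 ± 0.06, adjusted p = 6.88e-05) and Mdm2 (10.01 through 10.18 to 10.24, -0.23 ± 0.04, adjusted p = 9.17e-07) did not. The second Mdm2 probe set fell too, by 0.62 (adjusted p = 0.000983).

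**Figure D3:**
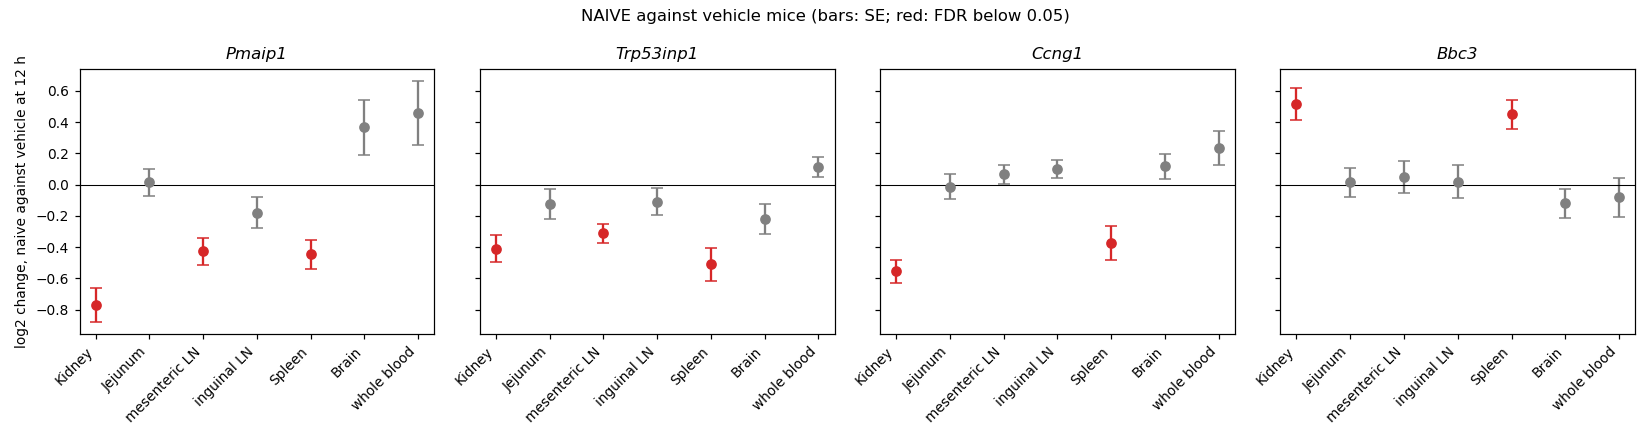
Log2 change of Pmaip1, Trp53inp1, Ccng1 and Bbc3 in NAIVE against vehicle at 12 h by organ, with bars of 1 standard error; red points passed the limma test at an adjusted p below 0.05. The red points lie below 0 for Pmaip1, Trp53inp1 and Ccng1, in kidney and spleen and for the first 2 genes also in MLN (-0.43 and -0.31), and above 0 for Bbc3, in kidney (0.52) and spleen (0.45).

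In ILN no member was called at 6 h, beside 0.0292%, 0.234%, 0.00585% and 0.433% of all genes for DMF 100, DMF 179.2, MEF and the combination. At 12 h Mdm2 fell with DMF 179.2, with the combination and in NAIVE, and Phlda3 rose with MEF. That is 0, 1, 1 and 1 members of 9 for the 4 dosed groups, beside 1.27%, 12.3%, 1.05% and 3.53% of genes, and 1 in NAIVE beside 14.5%. The 4 vehicle arrays for Mdm2 stood at 10.80, 10.71, 10.79 and 10.70. DMF 179.2 ran from 10.52 through 10.58 to 10.62 (-0.17 ± 0.04, adjusted p = 0.0025, n = 6), and NAIVE from 10.48 through 10.52 to 10.60 (-0.22 ± 0.04, adjusted p = 4.71e-05, n = 8). All arrays of both groups lay below the lowest vehicle array. The combination ran from 10.45 through 10.64 to 10.75 (-0.14 ± 0.04, adjusted p = 0.0233, n = 7) and overlapped vehicle, and that call was lost without vehicle array 1 or 7 (-0.12 and -0.13) with the mean of both probe sets (-0.27) and with only the 2 groups compared (adjusted p = 0.694). Phlda3 stood at 4.74, 4.52, 3.85, 4.19 and 3.76 with MEF and at 3.12, 3.52, 3.81 and 3.70 in vehicle (0.67 ± 0.18, adjusted p = 0.0435). Its groups overlapped, and leaving out MEF array 25, 29 or 31 or vehicle array 1 ended the call (0.53 to 0.68), as did a fit of only the 2 groups compared (adjusted p = 0.872). Other probe sets of Ccng1 fell at 12 h (by 0.33 and 0.39 with DMF 179.2) while the one used gave 0.16 ± 0.06 without a call. The 3 mast cell markers were all higher against this vehicle group with DMF 100, DMF 179.2, MEF and in NAIVE (medians of 1.60, 1.77, 1.82 and 1.44); their part in the member changes was not tested.

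In spleen the dosed calls were all at 6 h and all lower. DMF 179.2 gave 3 of 9 beside 23% of all genes, MEF gave 1 beside 3.5%, and DMF 100 and the combination gave none beside 0.146% and 3.98%. Mdm2 ran from 10.71 through 10.79 to 10.86 in 8 vehicle spleens and from 10.56 through 10.62 to 10.72 in 7 of DMF 179.2 (-0.17 ± 0.03, adjusted p = 0.00022). Trp53inp1 ran from 11.67 through 11.83 to 12.00 and from 11.40 through 11.50 to 11.77 (-0.30 ± 0.08, adjusted p = 0.00386), and Zmat3 from 8.14 through 8.38 to 8.49 and from 7.98 through 8.15 to 8.22 (-0.23 ± 0.07, adjusted p = 0.00892). All 3 overlapped vehicle, Mdm2 only at the edge, and place as a covariate ended the Zmat3 call (-0.21). The second probe sets of Mdm2 (-0.47) and Trp53inp1 (-0.41) fell as well. Ccng1 fell with MEF, from 11.13 through 11.19 to 11.33 to 10.58 through 10.90 to 11.03 (-0.32 ± 0.08, adjusted p = 0.0155), without overlap; the mean of its probe sets gave -0.14 and no call. Pancreatic acinar genes were high on some spleen arrays: the mean of 5 acinar markers ran from 3.80 to 12.17 in vehicle at 6 h and from 3.93 to 4.08 with DMF 179.2. Without the 19 spleen arrays high in acinar or liver genes, Trp53inp1 with DMF 179.2 changed by -0.25 (adjusted p = 0.0898) and Ccng1 with MEF by -0.31 (adjusted p = 0.281), and both calls were lost. Zmat3 was lower with DMF 179.2 than with DMF 100 (-0.28 ± 0.07, adjusted p = 0.0127), where 5.52% of genes differed, and its DMF 179.2 change was higher at 12 h than at 6 h (0.36 ± 0.10, adjusted p = 0.0145), where 6.09% did; place as a covariate ended the latter call (0.34).

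At 12 h no member was called in the dosed spleens, beside 0.0175%, 0.474%, 0.924% and 3.36% of all genes for DMF 100, DMF 179.2, MEF and the combination. The 3 NAIVE spleens gave 4 calls of 9, beside 18.3%. Pmaip1 stood at 8.09, 8.34 and 8.53 against 8.59 through 8.78 to 9.01 in 7 vehicle spleens (-0.45 ± 0.09, adjusted p = 0.000404), and Trp53inp1 at 10.76, 11.26 and 11.33 against 11.42 through 11.64 to 11.83 (-0.51 ± 0.11, adjusted p = 0.000348), neither with overlap. Ccng1 stood at 9.86, 10.20 and 10.45 against 10.34 through 10.57 to 10.69 (-0.37 ± 0.11, adjusted p = 0.0089). Bbc3 stood at 4.84, 5.45 and 5.22 against 4.48 through 4.79 to 4.84 (0.45 ± 0.10, adjusted p = 0.000387). Both overlapped vehicle. Without NAIVE array 41, Ccng1 (-0.22) and Trp53inp1 (-0.33) were not called. With only the 2 groups compared Ccng1, Trp53inp1 and Bbc3 were not called (adjusted p = 0.111, 0.0801 and 0.0921).

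Jejunum, brain and WB held no called member in any of their comparisons. In jejunum, where Nqo1 rose by up to 1.91, member changes ran from -0.26 (Bbc3, MEF at 12 h) to 0.25 (Phlda3, DMF 179.2 at 12 h), with a lowest adjusted p of 0.142 and 12 of 72 values at an unadjusted p below 0.05. The shares of all genes called there were 2.61%, 8.62%, 1.19% and 6.57% at 6 h for DMF 100, DMF 179.2, MEF and the combination, 0.632%, 7.4%, 0.813% and 3.45% at 12 h, and 5.44% in NAIVE. Leaving out combination array 89 at 6 h brought Ccng1 past the threshold. In 3 of the 8 vehicle arrays at 12 h the distal intestine genes Hoxb6 and Hoxb9 were high. Against this group both were lower with DMF 179.2 (median -1.92). Their mean was also high on DMF 100 array 15 at 12 h (6.27). On the 3 vehicle arrays Cdkn1a stood at 11.56, 11.41 and 11.67, above every other vehicle array of that time. A fit without the arrays high in these genes was run, but its member values are not given here. Nothing is therefore said of their part in the jejunum values.

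In brain, member changes ran from -0.24 to 0.38 (Pmaip1, combination at 12 h), the lowest adjusted p was 0.0696 (Mdm2 with DMF 179.2 at 6 h, -0.11 ± 0.04), and 10 of 72 values had an unadjusted p below 0.05. The shares of all genes were 0.0117%, 7.2%, 0.123% and 0.105% at 6 h, 0.0234%, 1.31%, 0.0877% and 1.45% at 12 h, and 2.56% in NAIVE. Nqo1 rose in brain with DMF 179.2 at 12 h by 0.77. In WB, member changes ran from -0.62 (Cdkn1a, MEF at 6 h) to 0.32 (Ccng1, DMF 100 at 12 h), with a lowest adjusted p of 0.195 and 8 of 72 values at an unadjusted p below 0.05. The Cdkn1a value there rested on vehicle array 54, at 7.30 beside a group median of 4.63, while the MEF arrays ran from 4.24 through 4.35 to 4.59. Few genes of any kind were called in WB: 0.0%, 0.0702%, 0.0% and 0.00585% at 6 h, 0.0351%, 0.322%, 0.00585% and 0.216% at 12 h, and 0.269% in NAIVE. Nqo1 itself was not called in WB.

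The wider p53 network was read from a list of 32 other p53 targets, of which 30 were measured. In kidney they gave 34 calls over the 8 dosed comparisons: 1 higher and 1 lower with DMF 100, 6 and 3 with DMF 179.2, 1 and 0 with MEF and 3 and 1 with the combination at 6 h, and 1 and 0, 4 and 1, 5 and 3, and 3 and 1 at 12 h. That is 14.2% of the list's values beside 10.7% of all gene values, and with DMF 179.2 at 6 h the 9 of 30 stood beside 25% of all genes. The medians of the 30 lay between -0.03 and 0.04 in all 8. The largest rise was that of Gadd45a, a stress sensor that halts the cycle, with the combination at 12 h (0.86 ± 0.09, adjusted p = 1.02e-11). Aen, an exonuclease of apoptosis, rose in all 4 dosed groups at 12 h, most with the combination (0.61 ± 0.06, adjusted p = 1.31e-11). The anti-proliferative gene Btg2 fell with DMF 179.2 at 6 h (-0.45 ± 0.12, adjusted p = 0.00206), and Rev3l, the catalytic subunit of a translesion polymerase, fell with MEF at 12 h (-0.41 ± 0.09, adjusted p = 0.000286). NAIVE kidneys had 8 of the 30 higher and 7 lower, near the 46% of all genes called there, among them Rev3l (-1.01), Gadd45a (0.34) and Aen (0.21).

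Among 11 regulators of p53, 10 were measured, and Trp53 itself was not analysed here. In kidney at 6 h the counts of higher and lower were 1 and 0, 3 and 1, 1 and 0, and 1 and 1 for DMF 100, DMF 179.2, MEF and the combination, and at 12 h 0 and 0, 1 and 0, 1 and 1, and 1 and 0. Of all genes 4.07%, 25%, 5.9% and 13.2% were called at 6 h. At 12 h the shares were 1.38%, 7.25%, 17.5% and 11%. Ppm1d, a phosphatase that turns p53 signalling off and is itself a p53 target, fell with MEF at 12 h (-0.36 ± 0.09) and in NAIVE (-0.63 ± 0.10). Chek1, a checkpoint kinase, rose with DMF 179.2 at 6 h (0.30 ± 0.07), as did Mdm4, the partner of Mdm2 (0.22 ± 0.07), while the kinase gene Atm fell (-0.26 ± 0.05). Genes of mitosis, which p21 is known to lower through the DREAM complex, were read on 10 of 11. With DMF 179.2 at 6 h, where 25% of all genes were called, 5 were higher and none lower (median 0.36), Birc5 among them (0.89). With the combination at 12 h, beside 11% of all genes, none was higher and 3 lower (median -0.12), Ccna2 (-0.92) and Mki67 (-0.78) among them. With DMF 179.2 at 12 h, where Cdkn1a also rose, none of the 10 was called.

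Lists of other pathways known to reach Cdkn1a or its neighbours were read beside these. All 5 genes of the ATF4 stress response rose in kidney at 12 h both with DMF 179.2 (median 0.81) and with the combination (median 1.55), the groups in which Cdkn1a rose; Chac1 (1.88 ± 0.25), Trib3 (1.57 ± 0.16), Atf3 (1.55 ± 0.23) and Ddit3 (0.96 ± 0.10) gave the largest changes with the combination. At 6 h 4 rose with DMF 179.2 and 2 with the combination, and with MEF at 12 h 1 rose. Of 6 glucocorticoid-induced genes in kidney, 1 was higher with DMF 100, 1 higher and 1 lower with DMF 179.2 and 2 higher with the combination at 6 h. None was called in the dosed groups at 12 h. Beside both lists, 4.07%, 25%, 5.9% and 13.2% of all genes were called at 6 h with DMF 100, DMF 179.2, MEF and the combination. At 12 h the shares were 1.38%, 7.25%, 17.5% and 11%. Per1 rose by 1.59 with DMF 179.2 at 6 h, Zbtb16 fell by 1.32, and Fkbp5 rose by 0.89 ± 0.24 with the combination (adjusted p = 0.00546). Array 84 of that combination group stood at 10.42 for Fkbp5, while its other arrays ran from 8.03 to 8.66. Vehicle ran from 7.27 to 8.32. The Fkbp5 change without array 84 is not given here. The part of either pathway in the Cdkn1a values was not tested.

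Outside the kidney, the 30 other p53 targets gave 9 calls in jejunum, 8 in MLN, 10 in ILN, 11 in spleen, 3 in brain and 0 in WB over the 8 dosed comparisons of each organ, at most 4.58% of the list's values. Each organ held 240 values of the list. Of all gene values, 3.91%, 2.42%, 2.36%, 4.42%, 1.29% and 0.0819% were called in these organs, in the same order. Nothing about the list is therefore read from these counts. In spleen with DMF 179.2 at 6 h 4 were higher and 5 lower, beside 23% of all genes, Ckap2 (0.86), Gtse1 (0.58) and Ak1 (0.48) up and Ei24 (-0.43) down, alongside 4 of 10 mitotic genes higher (median 0.52). Ckap2 and Gtse1 are themselves expressed in dividing cells. Of the 4 blood markers measured, 3 were higher there as well (median 0.57), and their part was not tested. In MLN with DMF 179.2 at 12 h 1 was higher (Ercc5, 0.29) and 5 lower, Btg2 (-0.41) and Ei24 (-0.28) among them, beside 13.8% of all genes, and NAIVE gave 3 higher and 8 lower, beside 24.4%. In ILN with DMF 179.2 at 12 h 2 were higher and 3 lower, beside 12.3%, and 6 of 10 mitotic genes were lower (median -0.56), Cdk1 (-0.66) and Birc5 (-0.63) among them. In jejunum with DMF 179.2 at 6 h 1 was higher and 3 lower, beside 8.62%. In brain Btg2 fell with DMF 179.2 at 12 h by 1.33 on the log2 scale (± 0.23, adjusted p = 0.000529), and in WB no gene of any of these lists was called.

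From animal to animal the members were compared after the group means were taken off. The correlation of Cdkn1a with Trp53inp1 over the 77 kidney arrays was 0.37 (rank 141 of 16107 genes), with Mdm2 0.12, and with the other 6 measured members between -0.0048 and 0.07. With Trp53inp1 it was 0.40 in brain and 0.25 in jejunum, -0.03 in ILN, -0.07 in spleen, -0.30 in MLN (rank 15733 of 16367) and -0.48 in WB (rank 15802 of 15838). Over the kidney arrays, the 5 genes whose residuals were most like those of Cdkn1a were Polr3e (0.68), Fkbp5 (0.66), Slc10a6 (0.65), Herpud1 (0.65) and Tsc22d3 (0.61). Fkbp5 and Tsc22d3 are on the glucocorticoid list. Those most like Mdm2 in kidney were Spata2 (0.57), Ctps (0.55), Csnk1d (0.54), Bclaf1 (0.53) and Ciapin1 (0.53). Arrays of 1 set share their normalisation, so these values describe likeness and carry no test. The correlation of Cdkn1a with Fkbp5 was 0.75 over the 86 brain arrays and 0.40 over the 76 of jejunum, and lay between -0.12 and 0.07 in MLN, ILN, spleen and WB. Without array 84 it was 0.56 in kidney, without arrays 58 and 84 it was 0.42 in brain, and without array 54 it was 0.15 in WB. The correlation of Cdkn1a with Tsc22d3 was 0.45 in brain and lay between -0.17 and 0.02 in jejunum, MLN, ILN, spleen and WB. Kidney array 84 was also high in Tsc22d3 (9.76, group median 8.49), and the kidney value for Tsc22d3 without it is not given here.

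**Figure D4:**
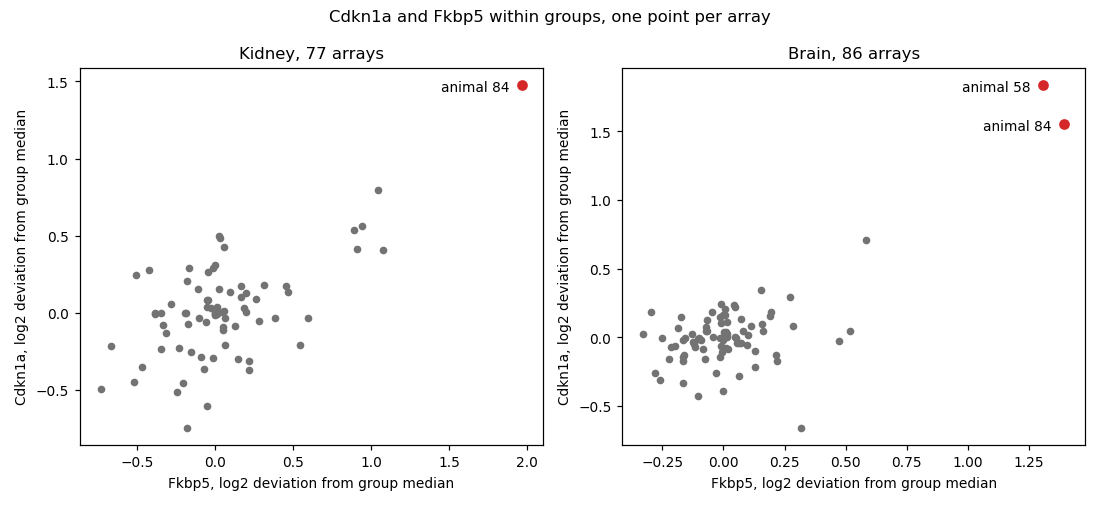
Cdkn1a against Fkbp5 on each kidney and each brain array, as log2 intensity minus the median of the array's group; each point is 1 animal. Animal 84 (6 h combination) stands at the upper right in both organs and animal 58 (6 h vehicle) in brain, and the correlation after group means were taken off is 0.66 over 77 kidney arrays and 0.75 over 86 brain arrays.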

How the data were processed

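Total RNA of whole organs was hybridised on Affymetrix arrays, 1 array per animal and organ. The authors deposited log2 intensities per probe set, and per the submitters' processing notes the tools were GCRMA, RMA, R 2.11.1 and limma 3.4.5. How they were combined is not given in the sources used here. The values were used as deposited; each organ and time had its own lowest value, near 2.2, which bounds dim genes. Of 45141 probe sets, 28898 were assigned to 1 gene, 551 to several and 15588 to none; 104 are controls. For each gene and organ the probe set of highest mean was kept, which left 17097 genes and 9 of 10 p53 targets.

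Groups came from the sample labels. limma 3.58.1 (R 4.3.3) was fitted per organ with 1 mean per group, and p-values were adjusted by Benjamini and Hochberg over all genes of a contrast, with calls below 0.05; the script was tested on simulated data. Arrays of an organ are separate animals by the labels' numbers, and no pair of arrays held identical values. The members and lists (other p53 targets, p53 regulators, mitotic genes, ATF4 response, glucocorticoid response, organ, acinar, liver, distal intestine, mast cell and adipocyte markers) were chosen with earlier results of these data known, and so were the arrays left out as alternatives. All members are described in every organ. Lowest, median and highest array values were to be given for at most 3 called members per organ and time, those of largest change; values of further called members were added after they had been seen. From each wider list at most 4 called genes per organ, those of largest change, were to be named, and the few named beyond these were likewise chosen after their values were seen. The number of arrays limits the precision. The alternatives tried changed the normalization (a further quantile step), the variance model (trend and robust), the genes tested (dim ones left out), the probe sets (their mean), the arrays (some left out, or only the 2 groups compared), and the account taken of place (as a covariate, or within spans of 4).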

Additional observations from a re-analysis of the deposited data

Results flagged for a closer look

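Groups of 4 to 10 arrays were checked for Cdkn1a, and for the other members where they were called, 138 pairs of a gene and a group in all. Of these, 9 held an array far from the others of its group by Dixon's test, which chance gives in about 5% of groups; 7 of the 9 were Cdkn1a. In kidney at 6 h, combination array 84 stood at 8.39 for Cdkn1a (group median 6.91). In brain at 6 h, combination array 84 stood at 9.42 (7.87), vehicle array 58 at 9.54 (7.70) and MEF array 77 at 7.51 (7.82). In WB, vehicle array 54 at 6 h stood at 7.30 (4.63) and DMF 100 array 15 at 12 h at 4.50 (3.76). In ILN, DMF 100 array 13 at 12 h stood at 7.30 (7.97). In spleen at 6 h, MEF array 80 stood at 10.58 for Ccng1 (10.90) and DMF 179.2 array 68 at 11.77 for Trp53inp1 (11.50).

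In 6 cases a member's change against vehicle differed between 12 h and 6 h. In kidney the difference was -0.31 for Mdm2 with DMF 100, and for Pmaip1 -0.62 with DMF 179.2, -0.68 with MEF and -0.82 with the combination. In MLN it was -0.42 for Pmaip1 with DMF 179.2, and in spleen 0.36 for Zmat3 with DMF 179.2. Of all genes, 0.404%, 7.14%, 7.38%, 2.8%, 2.61% and 6.09% differed between the times in these contrasts, in the order given.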

How the results depend on the processing

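None of the 53 called member changes and differences turned its direction in any alternative run, and 26 stayed past the threshold in each alternative run other than the shared spans. Calls lost were 0 of 53 with trend and robust variance, 0 of 47 with dim genes left out, 2 of 53 with a further quantile normalization, 10 of 53 with the mean of a gene's probe sets, 8 of 53 with place as a covariate, 13 of 43 with only the 2 groups compared, 15 of 73 fits that left out 1 array, 2 of 10 without spleen arrays high in acinar or liver genes, and 30 of 37 within shared spans of places, which hold fewer arrays. The 7 calls made there were those of Mdm2, Zmat3 and Pmaip1 in kidney with MEF (at 6 h, 6 h and 12 h), of Ccng1, Pmaip1 and Trp53inp1 in NAIVE kidney and of Ccng1 in spleen with MEF. Bbc3, Phlda3, Eda2r, Zmat3 and Pmaip1 have 1 probe set each, so the mean of a gene's probe sets left their values unchanged. That run bears on the choice of probe set only for Cdkn1a, Mdm2, Ccng1 and Trp53inp1, although the 53 include calls of all members. Kidney had 15 to 21 calls in place of 19 in the alternatives other than shared spans. MLN had 1 call in place of 3 with only the 2 groups compared, and ILN 1 in place of 3. Spleen had 2 in place of 4 without the arrays high in acinar or liver genes. Brain had 1 in place of 0 with a further quantile normalization (Bbc3 with DMF 179.2 at 6 h). With 1 array left out, the calls ran from 0 to 1 in jejunum and from 1 to 5 in ILN, where vehicle array 1 gave 1 and vehicle array 8 gave 5. WB had none throughout. NAIVE calls ran from 10 to 18 in place of 14, and calls of the 30 other p53 targets in kidney from 24 to 35 in place of 34. All these counts of calls in alternative runs are given without the shares of all genes called in the same runs. Nothing about the members or the list is therefore read from a rise or fall of a count. Arrays were left out in turn only in groups of 5 or fewer, plus the doubted ones. No paired analysis was possible because the groups compared within an organ are different animals and share no animal number. Intensities near the lowest value of a set bound what could be read of Eda2r and Bbc3, and Bax and Trp53 were not analysed here.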

Other observations

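The arrays with Cdkn1a farthest above the group median in kidney (animal 84) and brain (animals 58 and 84) were also high in Fkbp5, while in other organs of the same animals Fkbp5 was high with Cdkn1a near its group median. Animal 84 (6 h combination) stood at 10.42 for Fkbp5 in kidney (group median 8.46), 9.11 in brain (7.72) and 10.72 in jejunum (7.67). Animal 58 (6 h vehicle), of which no kidney or blood array was analysed here, stood at 8.97 for Fkbp5 in brain (7.67) and 9.45 in jejunum (7.54). In jejunum Cdkn1a of these animals was ordinary: 11.67 for animal 84 (group median 11.53) and 11.49 for animal 58 (11.48). Animal 84 was also high in Fkbp5 in MLN (9.37, group median 8.69), ILN (9.46, 8.78) and spleen (9.51, 8.66), with Cdkn1a at 8.10 (8.07), 8.16 (8.13) and 6.50 (6.58). The WB array of animal 54 with high Cdkn1a had Fkbp5 at 6.47, beside a group median of 6.61.

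Cdkn1a residuals, after group means were taken off, were compared between organs of the same animal in 21 pairs of organs. Kidney and brain gave a Pearson r of 0.59 over 76 animals (permutation p = 1e-05, the smallest that 100000 permutations can give, adjusted over the 21 pairs 0.00021) and a Spearman rho of 0.34 (permutation p = 0.0031, adjusted 0.0651). Without the 2 animals farthest from the kidney median r was 0.33. MLN and WB gave an r of 0.34 over 78 animals (adjusted permutation p = 0.0246), a rho of 0.28 (adjusted 0.138) and an r of 0.39 without the 2 farthest animals.

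The adipocyte genes measured, 2 of 4, had array means of 8.72 to 9.81 in vehicle ILN at 12 h and 8.84 to 11.7 with MEF, the group in which Phlda3 rose. In NAIVE spleens Alb, a liver gene, ran from 3.47 to 10.4. The part of the adipocyte genes in the member changes was not tested. The fit without spleen arrays high in acinar or liver genes left out the NAIVE array at 10.4. It lost 2 of 10 called member changes and differences in spleen, none of them in NAIVE. That fit also left out arrays of other groups, so the part of Alb alone was not tested.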
